A study of Mus musculus with 16 samples.

Results

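The mitosis genes are 43 mouse genes whose products carry a cell from the end of G2 to its division. They were chosen by name from the gene names of the array files, with the older name Cdc2a accepted for Cdk1. All 43 were on the array, through 73 probes, among 28034 gene names. All 43 also passed the filter on dim probes, which left 24126 genes to test, and each of them would have passed through an untreated group alone. Levels were measured in liver cells of c129/S3 mice, sorted with the antibody MIC1-1C3, whose antigen the labels write as M, and with an antibody to CD133, which Prom1 encodes. The groups were M+133+ DDC cells (n = 4), positive for both antigens and from mice fed 0.1% DDC for 2 weeks, M+133+ untreated cells (n = 4), M-133- DDC cells (n = 4), negative for both antigens and from mice fed the same diet, and M-133- untreated cells (n = 2), with all mice on a Purina 5015 base diet and no genetic change named. DDC (diethoxycarbonyl dihydrocollidine) blocks the last step of heme synthesis and induces a ductular reaction in the mouse liver. The M-133- sort is defined by what it lacks and is therefore a mixed population, and the age and sex of the mice were not given in the sources used here.

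Mitosis is driven by Cdk1 bound to cyclins A and B, which Cdc25 phosphatases switch on and the anaphase-promoting complex ends by destroying the cyclins and securin. Polo, Aurora and Nek kinases build the spindle, the kinetochore and its checkpoint hold the chromosomes until all are attached, and a RhoA-guided ring then cuts the cell. The transcripts of most of these genes accumulate in G2 and are low in resting cells. The adult liver is mostly resting until injury or loss of tissue brings cells into the cycle. In mammals the promoters of many of these genes carry a cell cycle homology region (CHR), read by the MuvB complexes with B-Myb and FoxM1, and a CCAAT box, read by NF-Y.

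Promoter windows from RefSeq (GRCm38.p6, from 250 bases before to 50 bases after the annotated start) were found for 35 of the 43 members. The windows were searched on both strands for the CHR letters TTTGAA or TTTAAA and for CCAAT. A CHR match was present for 27 of 35 members (77.1%), against 30.6% of all 27025 genes with a window. A CCAAT match was present for 26 members (74.3%), against 41.1% of all genes, and both were present for 23 members (65.7%), against 12.2%. Bub1, Cdc25b and Nek2 had CCAAT matches with no CHR match, Anln, Birc5, Kif2c and Ndc80 had CHR with no CCAAT, and Mad2l1, Mybl2, Ncaph, Nuf2 and Pttg1 had neither. A match is a run of letters and not a measured site, and no match says only that these letters are not in the window. Aurkb, Ccna2, Cdc25c, Foxm1, Incenp, Kif20a, Smc4 and Tpx2 had no entry. The 6 windows printed belong to members that passed a DDC test, and show a window with a CHR and a CCAAT match close together at the start (Cdk1, Racgap1, Kif4), one with the matches farther upstream (Mki67), one with a pair of CHR matches on opposite strands (Anln) and one with neither (Pttg1). They are written 5′ to 3′ on the gene's strand, with the matches in capitals.
Cdk1, chr10:69352863-69353162 (minus strand): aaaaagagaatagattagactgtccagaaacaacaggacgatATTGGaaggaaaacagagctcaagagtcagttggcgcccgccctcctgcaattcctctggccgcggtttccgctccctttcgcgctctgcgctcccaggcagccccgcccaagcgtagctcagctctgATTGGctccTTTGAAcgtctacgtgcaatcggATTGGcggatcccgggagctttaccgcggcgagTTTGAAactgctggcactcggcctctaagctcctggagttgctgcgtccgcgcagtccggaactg
Racgap1, chr15:99651607-99651906 (minus strand): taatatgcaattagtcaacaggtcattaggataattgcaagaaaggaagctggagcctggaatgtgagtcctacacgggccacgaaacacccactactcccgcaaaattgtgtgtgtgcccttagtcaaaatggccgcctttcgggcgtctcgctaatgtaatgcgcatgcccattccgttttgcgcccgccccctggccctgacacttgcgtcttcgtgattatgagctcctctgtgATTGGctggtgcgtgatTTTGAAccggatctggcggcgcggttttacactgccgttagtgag
Kif4, chrX:100625815-100626114 (plus strand): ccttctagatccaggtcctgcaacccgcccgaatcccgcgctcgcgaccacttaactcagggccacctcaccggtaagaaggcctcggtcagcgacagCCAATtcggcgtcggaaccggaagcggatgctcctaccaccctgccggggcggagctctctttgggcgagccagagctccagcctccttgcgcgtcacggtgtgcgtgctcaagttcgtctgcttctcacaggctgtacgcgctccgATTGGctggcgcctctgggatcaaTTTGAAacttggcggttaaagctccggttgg
Mki67, chr7:135716330-135716629 (minus strand): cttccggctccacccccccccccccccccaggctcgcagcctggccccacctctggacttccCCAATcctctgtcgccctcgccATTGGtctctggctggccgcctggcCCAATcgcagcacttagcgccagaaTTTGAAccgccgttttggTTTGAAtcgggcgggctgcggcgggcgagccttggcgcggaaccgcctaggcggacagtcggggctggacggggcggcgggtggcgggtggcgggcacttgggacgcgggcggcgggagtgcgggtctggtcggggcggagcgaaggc
Anln, chr9:22389157-22389456 (minus strand): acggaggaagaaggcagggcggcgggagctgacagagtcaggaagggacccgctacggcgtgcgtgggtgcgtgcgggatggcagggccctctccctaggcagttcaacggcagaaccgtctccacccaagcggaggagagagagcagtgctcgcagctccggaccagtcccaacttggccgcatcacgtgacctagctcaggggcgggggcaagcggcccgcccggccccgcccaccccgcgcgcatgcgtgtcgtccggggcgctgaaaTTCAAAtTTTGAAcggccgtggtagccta
Pttg1, chr11:43425932-43426231 (minus strand): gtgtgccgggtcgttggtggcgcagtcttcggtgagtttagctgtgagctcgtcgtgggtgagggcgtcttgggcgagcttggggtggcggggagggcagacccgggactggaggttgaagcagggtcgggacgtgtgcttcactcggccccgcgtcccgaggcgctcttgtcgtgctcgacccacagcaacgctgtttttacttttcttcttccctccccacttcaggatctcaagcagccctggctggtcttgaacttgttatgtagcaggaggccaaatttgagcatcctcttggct
In the Cdk1 window the CHR matches began at -71 and -15 and the CCAAT matches at -208, -80 and -48, counted from the annotated start. In the Racgap1 window the CHR match began at 6 and the CCAAT match at -12.

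The 14 samples were run on 16 arrays of 5 slides. M+133+ untreated sample 1 was run on 2 arrays, as was M-133- untreated sample 2, and their repeats were averaged. The labels do not say whether the samples of a group came from separate mice, so p-values measure the spread between these samples. Every level below is log2 of the processed signal minus the 75th percentile of its array, and is set only against the same probe in other samples. The 75th percentile was 603 to 2732 intensity units over the arrays, and spots well above background made up 60.3% to 77.3%. Across genes, which are not independent replicates, samples of a group correlated at 0.838 to 0.920 and samples of different sorts at 0.705 to 0.800. Prom1 lay between 0.81 and 2.23 in the 8 M+133+ samples and between -8.63 and -3.52 in the 6 M-133- samples, and was well above background in 1 of those 6, M-133- DDC sample 2 (-3.52). The means of 12 bile duct markers were 3.09 to 4.82 in M+133+ DDC and 2.39 to 3.30 in M+133+ untreated samples. Those of 11 hepatocyte markers were 3.75 to 4.46 in M-133- DDC and 3.82 to 4.72 in M-133- untreated samples. In M+133+ samples the hepatocyte means were -3.35 to 0.50 after DDC and -2.31 to -1.06 untreated. The highest, 0.50, was that of M+133+ DDC sample 2, and the next DDC sample read -1.80.

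The mean level of the 43 mitosis genes was 1.03, 1.31, 0.58 and 1.18 in M+133+ DDC samples 1 to 4, against -2.36, -0.66, -2.19 and -3.08 in M+133+ untreated samples. It was 1.00, 0.62, 0.94 and -0.30 in M-133- DDC samples, against -1.73 and -3.07 in M-133- untreated samples. In both sorts every DDC sample lay above every untreated sample. The differences of the group means were 3.10 in M+133+ cells and 2.97 in M-133- cells, on the log2 scale and with no test. Between sorts the difference was 0.46 after DDC and 0.33 in untreated cells. The untreated value turned to -0.34 without M-133- untreated sample 2 and was 1.00 without M-133- untreated sample 1, and the value after DDC was 0.17 without M-133- DDC sample 4. The repeat arrays of a sample gave -2.49 and -2.22 for M+133+ untreated sample 1 and -3.13 and -2.97 for M-133- untreated sample 2. These are bulk RNA measurements, in which fewer cycling cells and less RNA per cycling cell cannot be told apart.

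**Figure D1:**
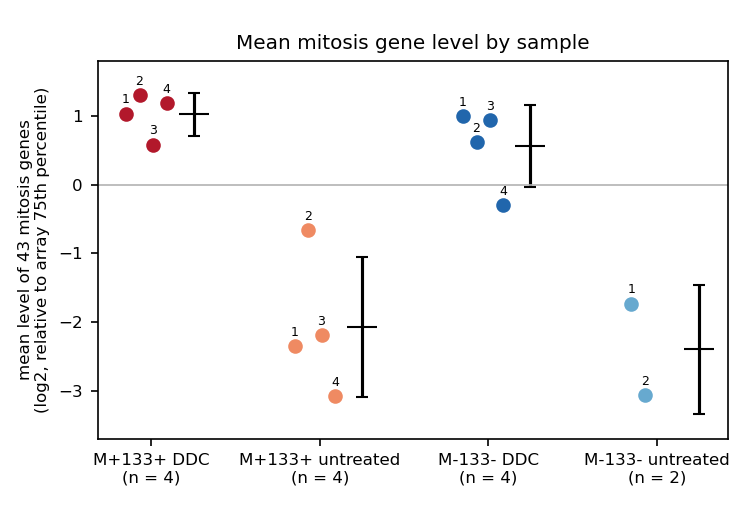
Mean log2 level of the 43 mitosis genes relative to the array's 75th percentile (vertical axis), for each sample (numbered points) in the 4 groups, with the group mean and SD beside the points. The M+133+ DDC samples lie between 0.58 and 1.31 and the M-133- DDC samples between -0.30 and 1.00, and all 6 untreated samples lie between -3.08 and -0.66.

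With DDC against untreated in M+133+ cells, 7 of the 43 members rose and none fell. They were Anln, Cdc25c, Aurkb, Ccna2, Kif4, Ncapg and Mki67, with differences of 2.13 to 6.89 on the log2 scale (limma, adjusted p = 0.0208 to 0.0473). Of all 24126 genes tested, 56 passed (0.232%), 0.137% as higher and 0.0953% as lower. The difference was above 0 for 43 of 43 members, and their median was 2.96, against 0.06 for all genes. The groups did not overlap for 27 members, all higher after DDC, where 3.95% of all genes were higher and 4.14% lower without overlap. At an unadjusted p under 0.05 there were 37 members, and 12.2% of all genes.

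With DDC against untreated in M-133- cells, 8 members rose and none fell. They were Cdc25c, Nek2, Racgap1, Ect2, Cdk1, Birc5, Kif20a and Pttg1 (limma, adjusted p = 0.0100 to 0.0325 for the 8). Differences were 3.38 to 6.69 for the 7 other than Cdc25c, whose rise has only a bound on the probe used. Of all genes tested 229 passed (0.949%), 0.58% as higher and 0.369% as lower. The difference was above 0 for 40 of 43 members, with a median of 3.19, against -0.38 for all genes. The groups did not overlap for 27 members that were higher after DDC, where 6.88% of all genes were, and for 1 that was lower, Cdc25b, where 13.5% of all genes were. Without adjustment, 30 members and 12.8% of all genes had a p under 0.05. Cdc25c was the 1 member that passed in both sorts, and whether the other calls differ between sorts is what the interaction tests.

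**Figure D2:**
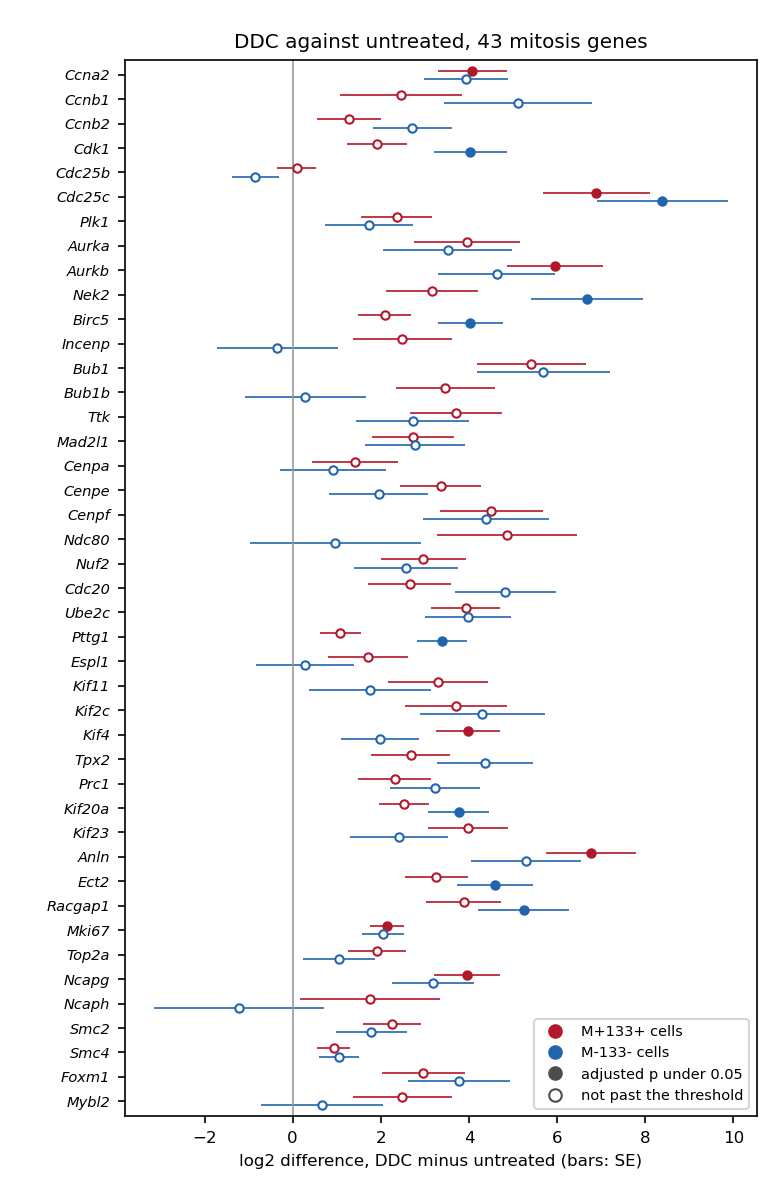
Log2 difference of DDC minus untreated (horizontal axis, bars are the moderated SE) for each of the 43 mitosis genes in M+133+ cells (red, n = 4 and 4) and M-133- cells (blue, n = 4 and 2), with filled points for an adjusted p under 0.05. All 43 red points and 40 of 43 blue points lie right of 0, and 7 red and 8 blue points are filled. The blue point of Cdc25c is set against untreated arrays not well above background, so its distance from 0 is not a measured size.

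The 6 cyclins, Cdk1 and its activators hold the start of mitosis. Cdc25c, a phosphatase that activates Cdk1, had levels of 2.30, 2.05, 0.03 and -0.90 in M+133+ DDC samples, against -5.40, -2.23, -9.05 and -7.42 in M+133+ untreated samples. It read 1.17, 0.18, 1.56 and -0.32 in M-133- DDC samples, against -7.15 and -8.34 in M-133- untreated samples. No DDC sample overlapped an untreated sample of its sort. The difference was 6.89 ± 1.21 (SE) in M+133+ cells (limma, adjusted p = 0.0373), where 2 of 5 untreated arrays were well above background. In M-133- cells no untreated array was well above background on the probe used. The rise it gave there was at least 102-fold against the dimmest signals called well above background (limma, adjusted p = 0.0143). A second probe of Cdc25c was well above background on all 3 M-133- untreated arrays. It gave smaller differences, 3.75 in M+133+ cells and 1.87 in M-133- cells. The bound therefore holds for the probe used and not for the gene.

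Cyclin A2 (Ccna2), which partners Cdk2 and then Cdk1, read 1.91, 0.53, 0.83 and 0.29 in M+133+ DDC samples, against -4.16, -1.55, -2.14 and -4.90 in M+133+ untreated samples. No DDC sample overlapped an untreated one, and the difference was 4.08 ± 0.78 (SE, adjusted p = 0.0473). Ccna2 read 0.52, -0.97, 0.21 and -1.03 in M-133- cells after DDC, against -4.66 and -3.84 untreated, and a difference of 3.93 missed the threshold there (adjusted p = 0.0700).

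Cdk1, the kinase at the centre of mitotic entry, read 0.10, 1.13, -0.21 and -0.75 in M-133- DDC samples, against -3.69 and -4.24 in M-133- untreated samples. DDC and untreated samples were apart by over 2 log2 units, and the difference was 4.03 ± 0.83 (SE, adjusted p = 0.0325). Cdk1 in M+133+ cells read -0.51, 0.76, 0.37 and 0.51 after DDC, against -3.30, -0.42, -1.65 and -1.16 untreated. There M+133+ DDC sample 1 lay below M+133+ untreated sample 2, and the difference of 1.91 did not pass (adjusted p = 0.257). A second Cdk1 probe gave 1.13 in M+133+ cells and 0.77 in M-133- cells. It was dim, well above background on 2 of 4 DDC arrays of each sort and on no untreated array.

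Cyclin B1 (Ccnb1), the main mitotic cyclin, read 0.98, 1.67, 0.78 and 0.45 in M+133+ DDC samples, against -5.50, 0.39, 0.35 and -1.19 in M+133+ untreated samples. It read, in M-133- cells, 1.66, 2.36, 4.16 and 0.75 after DDC, against 0.34 and -6.09 untreated. The groups were apart in both sorts, but the untreated samples spread over more than 5 log2 units, and neither the difference of 2.46 in M+133+ cells (adjusted p = 0.505) nor that of 5.11 in M-133- cells (adjusted p = 0.193) passed. Other Ccnb1 probes gave 2.64 and 4.58 in M+133+ cells and 7.15 and 4.69 in M-133- cells. The 7.15 was set against no untreated array well above background. Ccnb2, a related cyclin, had differences of 1.28 and 2.71 in M+133+ and M-133- cells. Cdc25b, the Cdk1-activating phosphatase active earliest, had 0.09 and -0.84, and its sign in M+133+ cells turned under quantile normalization. Its probes disagreed: another, well above background on every array, gave 2.20 and 0.54, and the remaining probe gave -1.20 and 1.77.

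Among the 6 mitotic kinases and passenger proteins, Aurkb, the kinase of the chromosomal passenger complex, read -1.95, -1.37, -1.97 and -0.43 in M+133+ DDC samples, against -6.33, -5.40, -8.87 and -8.95 in M+133+ untreated samples. The groups were apart by over 3 log2 units, and the difference was 5.96 ± 1.09 (SE, adjusted p = 0.0389), with 2 of 5 untreated arrays well above background. Aurkb in M-133- cells read -1.09, -1.49, -1.54 and -5.95 after DDC, against -7.35 and -6.94 untreated. M-133- DDC sample 4 lay far below the other DDC samples of its sort, and the difference of 4.63 did not pass (adjusted p = 0.132).

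Nek2, which separates the centrosomes, read 5.90, 3.82, 1.90 and 3.05 in M-133- DDC samples, against -4.21 and -1.83 in M-133- untreated samples. The difference was 6.69 ± 1.27 (SE, adjusted p = 0.0218). Nek2 in M+133+ cells read 3.02, 2.07, 1.49 and 4.15 after DDC, against -2.61, 1.05, 1.53 and -1.88 untreated. M+133+ DDC sample 3 lay just below M+133+ untreated sample 3, and the difference of 3.16 did not pass (adjusted p = 0.232).

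Birc5 (survivin), a passenger protein that brings Aurora B to the centromere, read 5.74, 4.89, 5.86 and 5.82 in M-133- DDC samples, against 3.08 and 0.02 in M-133- untreated samples. Birc5 in M+133+ cells read 5.05, 5.24, 4.33 and 4.09 after DDC, against 1.95, 3.52, 3.42 and 1.47 untreated. The groups were apart in both sorts, with a difference of 4.03 ± 0.74 (SE, adjusted p = 0.0176) in M-133- cells and of 2.09 ± 0.60 (adjusted p = 0.181) in M+133+ cells.

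Plk1, the Polo kinase of mitotic entry and cytokinesis, read 0.88, 0.09, -1.82 and 2.13 in M+133+ DDC samples, against -2.30, -0.24, -3.14 and -2.46 in M+133+ untreated samples. Plk1 in M-133- cells read -0.76, -0.66, -0.15 and 0.17 after DDC, against -2.25 and -1.92 untreated. The values overlapped in M+133+ cells and not in M-133- cells, and neither the difference of 2.36 (adjusted p = 0.250) nor that of 1.73 (adjusted p = 0.516) passed. Aurka, the spindle pole Aurora kinase, had differences of 3.95 in M+133+ and 3.52 in M-133- cells, and Incenp, the scaffold of the passenger complex, had 2.49 and -0.34.

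None of the 9 checkpoint and kinetochore genes passed in either sort, although all 9 differences were above 0 in each. Their medians were 3.46 in M+133+ cells (range 1.41 to 5.41) and 2.57 in M-133- cells (range 0.29 to 5.69). The differences were 5.41 and 5.69 for Bub1, a checkpoint kinase, with 2 of 5 M+133+ untreated arrays and 1 of 3 M-133- untreated arrays well above background. A second Bub1 probe, at mm9 chr2:127626326-127626385, gave 0.61 and 0.53, where the probe used lies at chr2:127626988-127627047. Cenpa, the histone H3 variant that marks centromeres, read -1.85, 0.34, -0.77 and 0.01 in M+133+ DDC samples, against -5.46, -1.17, -0.98 and -0.30 in M+133+ untreated samples. It read 1.12, 0.45, 0.66 and 1.89 in M-133- DDC samples, against -0.91 and 1.14 in M-133- untreated samples. The groups overlapped in both sorts, and the differences of 1.41 (adjusted p = 0.613) and 0.92 (adjusted p = 0.830) did not pass. The others of this group, Bub1b, Ttk and Mad2l1 of the checkpoint, the motor Cenpe, and Cenpf, Ndc80 and Nuf2 of the kinetochore, had differences of 2.73 to 4.85 in M+133+ cells and 0.29 to 4.39 in M-133- cells. A second Cenpf probe gave -0.46 and 1.67, where the probe used gave 4.51 and 4.39.

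Of the 4 anaphase genes, Pttg1 (securin), which holds separase inactive, read 4.26, 2.79, 3.41 and 4.12 in M-133- DDC samples, against 1.13 and -0.61 in M-133- untreated samples. Pttg1 in M+133+ cells read 2.64, 2.75, 1.88 and 2.99 after DDC, against 1.05, 1.70, 1.79 and 1.37 untreated. The groups were apart in both sorts, widely in M-133- cells and by under 0.1 log2 units in M+133+ cells. The difference was 3.38 ± 0.57 (SE, adjusted p = 0.0100) in M-133- cells and 1.08 ± 0.47 (adjusted p = 0.365) in M+133+ cells. Cdc20 and Ube2c, an activator and a ubiquitin-conjugating enzyme of the anaphase-promoting complex, had differences of 2.65 and 3.92 in M+133+ cells and 4.83 and 3.98 in M-133- cells. Espl1 (separase), the protease that cuts cohesin, had 1.71 and 0.27, with 2 of 5 M+133+ untreated arrays and 1 of 3 M-133- untreated arrays well above background.

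Kif4, a chromosome-bound motor, was the 1 of 4 spindle genes that passed. It read 3.52, 1.48, 1.57 and 0.87 in M+133+ DDC samples, against -1.81, -2.02, -2.53 and -2.12 in M+133+ untreated samples. The untreated samples were tight (SD 0.30), the groups were apart by over 2 log2 units, and the difference was 3.98 ± 0.72 (SE, adjusted p = 0.0389). Kif4 in M-133- cells read 3.16, 0.15, 1.53 and 0.28 after DDC, against -1.25 and -0.15 untreated (difference 1.98, adjusted p = 0.362). Kif11, the bipolar spindle motor, Kif2c, a microtubule depolymerase, and Tpx2, an activator of Aurora A, had differences of 2.68 to 3.70 in M+133+ cells and 1.76 to 4.36 in M-133- cells.

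All 6 genes of the central spindle and cytokinesis were higher after DDC without overlap in both sorts, where 3.95% of all genes were in M+133+ cells and 6.88% in M-133- cells. Anln (anillin), a scaffold of the contractile ring, read 3.35, 0.69, 0.83 and 3.01 in M+133+ DDC samples, against -4.36, -2.90, -6.23 and -5.70 in M+133+ untreated samples. The gap was over 3 log2 units, and the difference of 6.77 ± 1.02 (SE, adjusted p = 0.0208) is a 109-fold change. Anln in M-133- cells read 0.88, 0.19, 2.87 and 0.56 after DDC, against -2.22 and -6.11 untreated (difference 5.29, adjusted p = 0.0612). A second Anln probe gave 4.78 and 3.38 in M+133+ and M-133- cells.

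Racgap1, a subunit of centralspindlin, read 1.33, 0.19, -0.93 and -1.63 in M-133- DDC samples, against -5.45 and -5.55 in M-133- untreated samples. Racgap1 in M+133+ cells read 0.57, 0.49, 1.25 and 0.57 after DDC, against -4.36, -0.60, -4.06 and -3.62 untreated. The difference was 5.24 ± 1.04 (SE, adjusted p = 0.0270) in M-133- cells and 3.88 ± 0.85 (adjusted p = 0.0794) in M+133+ cells. A second Racgap1 probe gave the opposite order, 2.25 in M-133- cells and 4.49 in M+133+ cells. Ect2, the RhoA exchange factor that centralspindlin recruits, read 1.99, 0.05, 2.70 and 1.11 in M-133- DDC samples, against -3.72 and -2.54 in M-133- untreated samples. It read 0.98, 2.40, 1.53 and 1.78 in M+133+ DDC samples, against -0.52, -1.01, -1.60 and -3.21 in M+133+ untreated samples. The 4 groups of Ect2 values were apart by treatment in each sort, with a difference of 4.59 ± 0.87 (SE, adjusted p = 0.0215) in M-133- cells and 3.26 ± 0.71 (adjusted p = 0.0771) in M+133+ cells. A second Ect2 probe gave 1.07 in M-133- cells and 3.12 in M+133+ cells, the opposite order. When the probes of a gene were averaged instead, neither Racgap1 nor Ect2 passed in M-133- cells.

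Kif20a, the motor that carries Plk1 and the passenger complex to the midzone, read 2.05, 1.70, 2.02 and 2.04 in M-133- DDC samples, against -1.34 and -2.29 in M-133- untreated samples. Kif20a in M+133+ cells read 0.75, 1.90, 1.06 and 2.59 after DDC, against -1.35, 0.28, -0.89 and -1.84 untreated. The M-133- DDC samples were the tightest group of Kif20a values (SD 0.17), and the difference was 3.77 ± 0.69 (SE, adjusted p = 0.0182) in M-133- cells and 2.53 ± 0.57 (adjusted p = 0.0859) in M+133+ cells. Prc1, the microtubule bundler of the midzone, and Kif23, the motor of centralspindlin, had differences of 2.31 and 3.97 in M+133+ cells and 3.23 and 2.42 in M-133- cells, none past the threshold. A second Kif23 probe gave 3.95 in M+133+ cells and 7.99 in M-133- cells. The 7.99 was set against no untreated array well above background.

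**Figure D3:**
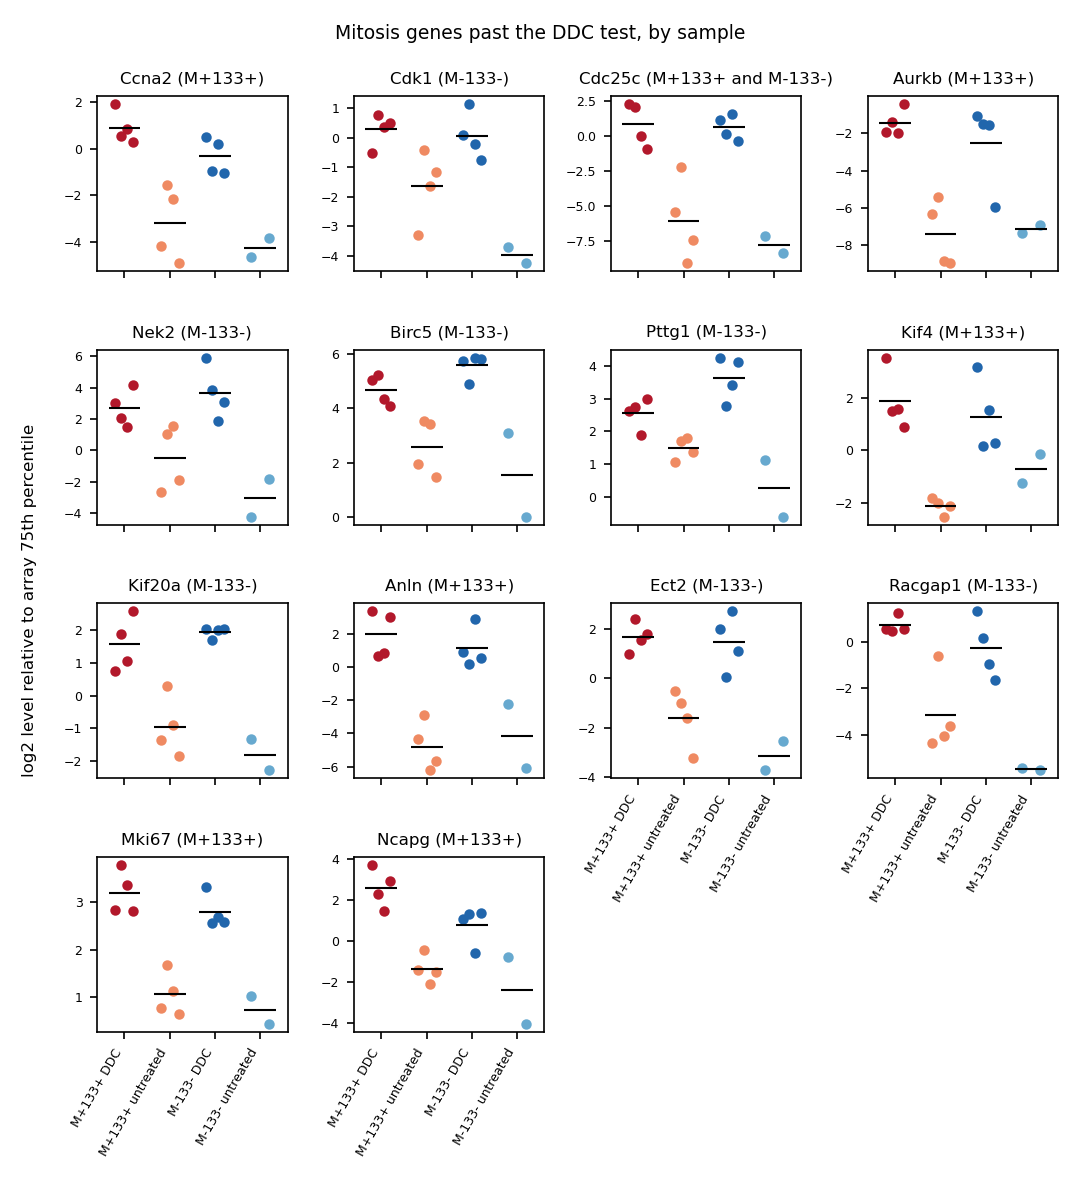
Log2 level relative to the array's 75th percentile (vertical axes, 1 panel a gene with its own range) of the 14 mitosis genes past the DDC test in the sort named in the panel title, for each sample (points) and as group means (lines), with M+133+ DDC and M+133+ untreated samples left and M-133- DDC and M-133- untreated samples right. In every panel the DDC mean lies above the untreated mean of the same sort, as for Anln with 1.97 against -4.80 in M+133+ cells.

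Among the 6 genes of chromosome structure, Mki67 (Ki-67), the coat protein of mitotic chromosomes that is used as a marker of cycling cells, read 2.82, 3.77, 3.36 and 2.81 in M+133+ DDC samples, against 0.77, 1.68, 1.13 and 0.65 in M+133+ untreated samples. Mki67 in M-133- cells read 3.32, 2.56, 2.68 and 2.57 after DDC, against 1.03 and 0.44 untreated. The difference was 2.13 ± 0.39 (SE, adjusted p = 0.0389) in M+133+ cells and 2.05 ± 0.47 (adjusted p = 0.0577) in M-133- cells. A second Mki67 probe, well above background on every array, gave 3.57 and 2.03. Ncapg, a condensin I subunit, read 3.70, 2.28, 1.48 and 2.91 in M+133+ DDC samples, against -1.39, -0.43, -2.11 and -1.49 in M+133+ untreated samples. Every DDC sample lay above every untreated one, and the difference was 3.95 ± 0.75 (SE, adjusted p = 0.0473). Ncapg in M-133- cells read 1.05, 1.30, -0.59 and 1.38 after DDC, against -0.76 and -4.04 untreated (difference 3.19, adjusted p = 0.135). A second Ncapg probe gave 6.44 in M+133+ cells and 2.96 in M-133- cells.

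Top2a, the topoisomerase that untangles sister chromatids, had differences of 1.92 in M+133+ and 1.05 in M-133- cells, and a second probe gave 5.26 and 3.77. Smc2 and Smc4, the condensin core ATPases, had 2.25 and 0.93 in M+133+ cells and 1.79 and 1.06 in M-133- cells. Ncaph, another condensin I subunit, had 1.76 in M+133+ cells and -1.22 in M-133- cells, where M-133- DDC sample 4 read -7.60.

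Foxm1 and Mybl2 (B-Myb) encode the transcription factors that act with MuvB on these promoters. Foxm1 read 0.55, 1.09, 0.90 and 0.04 in M+133+ DDC samples, against -0.97, -0.67, -1.67 and -5.98 in M+133+ untreated samples. Foxm1 in M-133- cells read -0.65, 0.73, -0.22 and -0.11 after DDC, against -4.09 and -3.56 untreated. The groups of Foxm1 were apart in both sorts, and the differences of 2.97 (adjusted p = 0.221) and 3.76 (adjusted p = 0.162) did not pass. Mybl2 read -2.44, -2.03, -1.56 and -3.73 in M+133+ DDC samples, against -5.34, -4.96, -5.91 and -3.52 in M+133+ untreated samples. It read -5.76, -1.17, -5.59 and -4.33 in M-133- DDC samples, against -2.61 and -7.14 in M-133- untreated samples. Its values overlapped in both sorts, and the differences of 2.49 (adjusted p = 0.389) and 0.67 (adjusted p = 0.901) did not pass.

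**Figure D4:**
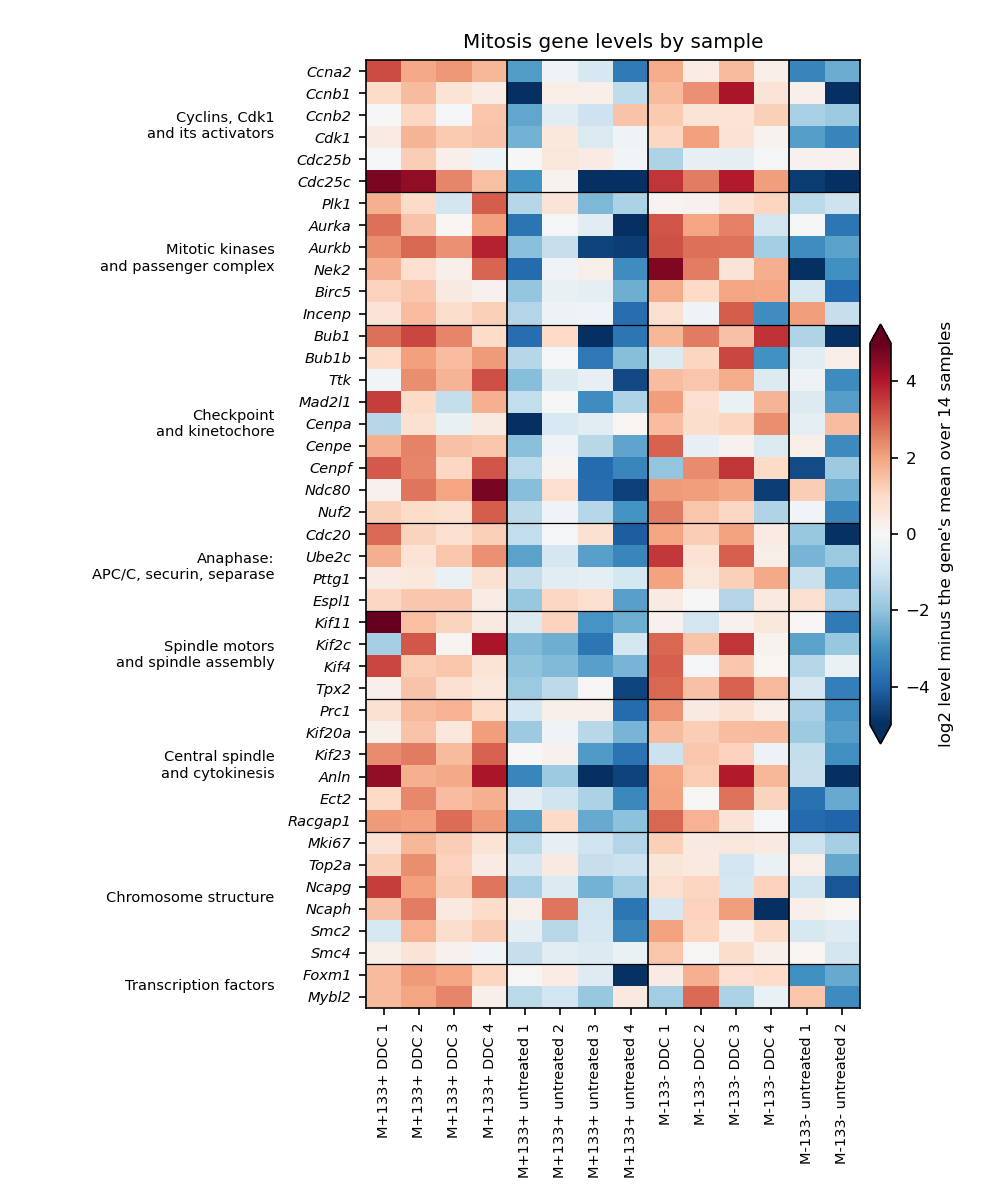
Log2 level of each of the 43 mitosis genes (rows, grouped by role) in each of the 14 samples (columns, DDC left of untreated in each sort), minus the gene's own mean over the 14 samples, with red above and blue below that mean. The 4 M+133+ DDC samples have 38 to 43 of 43 members above their own mean, the 4 M-133- DDC samples 29 to 37, and the 6 untreated samples 3 to 17.

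Samples of a group did not hold the same position across members. M+133+ untreated sample 2 had 17 of 43 members above their own mean over the 14 samples, where the other M+133+ untreated samples had 3 to 7. M-133- DDC sample 4 had 29, where the other M-133- DDC samples had 37, and its lowest values included Aurkb, Ndc80 and Ncaph. M-133- untreated sample 1 had 11 and M-133- untreated sample 2 had 4. The median difference over roles ran from 2.03 (chromosome structure) to 3.57 (central spindle and cytokinesis) in M+133+ cells and from 1.42 (chromosome structure) to 4.18 (central spindle and cytokinesis) in M-133- cells, as a description over 2 to 9 members a role.

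The slides held both treatments of a sort in part, and the members' differences were recomputed within them. In M+133+ cells the median difference was 2.11 on slide 3 (2 DDC arrays and 2 untreated arrays, 43 of 43 members above 0) and 4.30 on slide 4 (2 DDC arrays and 1 untreated array, 41 of 43). In M-133- cells it was 2.77 on slide 1 (1 array of each, 37 of 43) and 3.77 on slide 2 (2 DDC arrays and 1 untreated array, 40 of 43). With slide as a fixed block, 0 members passed in M+133+ cells and 6 in M-133- cells, and with slide as a random block 11 and 14 passed.

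The number of members that passed depended on 1 sample at a time. In M+133+ cells it fell to 0 without M+133+ DDC sample 4, M+133+ untreated sample 3 or M+133+ untreated sample 4, to 1 (Anln) without M+133+ DDC sample 2 or M+133+ untreated sample 1, to 2 without M+133+ DDC sample 1 or either M-133- untreated sample, and to 4 without M-133- DDC sample 2. The choice of probe mattered too: when the probes of a gene were averaged, 6 passed in M-133- cells, without Cdc25c, Cdk1, Ect2 and Racgap1 and with Ccnb1 and Kif23, and 8 passed in M+133+ cells, without Cdc25c and with Kif20a and Ube2c. In M-133- cells the count fell to 2 without M-133- untreated sample 1 (Birc5 and Pttg1) or M-133- untreated sample 2 (Ect2 and Nek2), and to 1 (Cdc25c) when only these 2 groups entered the fit. Over the 14 fits that each left out 1 sample, 42 or 43 members were above 0 in M+133+ cells and 35 to 42 in M-133- cells.

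Between the sorts, M+133+ against M-133- cells, no member passed after DDC and none in untreated cells (limma, 3 members at an unadjusted p under 0.05 in each). Of all genes 12.3% passed after DDC, 6.09% as higher and 6.18% as lower, and 8.46% in untreated cells, 3.47% as higher and 4.99% as lower. The unadjusted threshold was passed by 25% of all genes after DDC and 19.4% in untreated cells. No slide held DDC arrays of both sorts. M+133+ DDC arrays were on slides 3 and 4, and M-133- DDC arrays on slides 1, 2 and 5. A difference between sorts after DDC is thus also a difference between slides. After DDC the sorts did not overlap for 2 members that were higher in M+133+ cells and 2 that were lower, where 7.44% and 6.81% of all genes were. In untreated cells this held for 2 higher members and 1 lower member, where 15.3% and 18.3% of all genes were. The median of the members was 0.58 after DDC, against 0.30 for all genes, and 0.25 in untreated cells, against -0.09 for all genes. The smallest adjusted p was 0.146 after DDC, for Ncapg (difference 1.81), and 0.109 in untreated cells, for Cdk1 (difference 2.33). Kif23 (2.09) and Pttg1 (-1.08) after DDC, and Racgap1 (2.34) and Pttg1 (1.22) in untreated cells, were the others at an unadjusted p under 0.05. Cdk1 passed in untreated cells without M+133+ untreated sample 1, and Foxm1 without M+133+ untreated sample 4. For Kif23 another probe gave 6.76 in untreated cells, with no M-133- untreated array well above background, where the probe used gave 0.54. Other Smc2 probes gave 0.21, 0.41 and 3.64 after DDC, where the probe used gave -0.30. Those of Ccnb1 gave -1.32 and -1.46 after DDC, where the probe used gave -1.26. No member passed after DDC when the probes of a gene were averaged. The median over members after DDC was -0.12 when arrays were scaled to their medians, a setting that moved the median of all genes to -0.40, so its direction rests on the scaling. In untreated cells the median over members was -0.12 with normexp background correction, where 16 of 43 members were above 0, and ran from -0.60 to 1.27 over the fits that each left out 1 sample.

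The interaction of sort and DDC asked whether the DDC difference of a member was unlike in M+133+ and M-133- cells. No member passed (limma, 2 at an unadjusted p under 0.05, Pttg1 and Nek2), where 0.249% of all genes did, 0.0622% as higher and 0.187% as lower, and 10.1% of all genes had an unadjusted p under 0.05. The median over members of the difference in M+133+ minus that in M-133- cells was 0.15, against 0.40 for all genes. It was -0.37 with median scaling, 0.71 with normexp and -0.47 to 0.76 over the fits that each left out 1 sample, so neither its sign nor its size was settled. For Pttg1 the interaction was -2.30 ± 0.74 (SE, adjusted p = 0.296) and for Nek2 it was -3.52 ± 1.64 (adjusted p = 0.491). The median SE over members was 1.45 log2 units, so differences of several-fold between the sorts were not detectable with these samples. Over the 43 members the DDC differences in M+133+ and in M-133- cells, which share no sample, correlated with r = 0.58 across genes, against 0.16 across all genes, and 40 members were above 0 in both (93.0%), against 21.0% of all genes. Genes are not independent replicates, and both comparisons used the same array design and scaling. Whether both sorts came from the same mice is not known. The correlation also includes Cdc25c, Aurkb and Bub1, whose untreated signals were in part not well above background. Slides 2, 4 and 5 held arrays of both sorts, but no slide held DDC arrays of both.

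**Figure D5:**
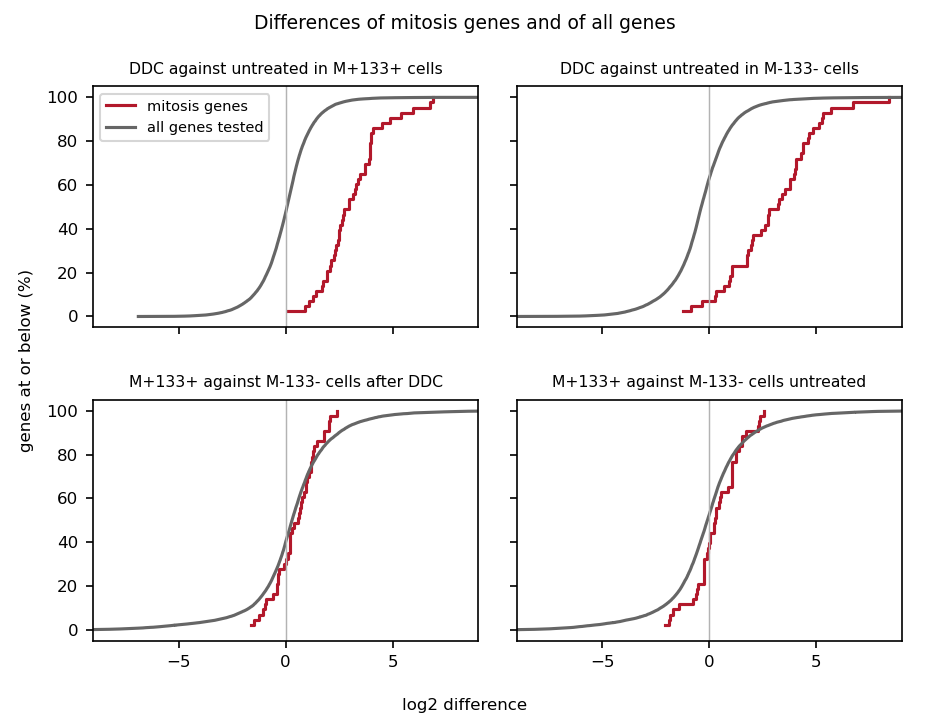
Share of genes at or below a log2 difference (vertical axis, percent) against that difference (horizontal axis), for the 43 mitosis genes (red steps) and all 24126 genes tested (grey), in the 2 comparisons of DDC with untreated cells (top) and the 2 of M+133+ with M-133- cells (bottom). The red curve lies right of the grey curve in the top panels, with medians of 2.96 against 0.06 and 3.19 against -0.38, and near it in the bottom panels, with medians of 0.58 against 0.30 and 0.25 against -0.09.

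In the authors' deposited table, 42 of 43 members had a positive fold for DDC over untreated in M+133+ cells and 41 of 43 in M-133- cells. Their false discovery rate was under 5% for 8 members in M+133+ cells and for 1 in M-133- cells, per the authors' deposited table. The shares of all probes in that table were not counted, so these counts cannot be read against them. The median signed fold there was 8.73 in M+133+ cells and 10.9 in M-133- cells, with 115-fold for Anln in M+133+ cells.

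Other genes of the cell cycle were counted from lists. Of 69 tested genes among other mitosis genes, 0 passed in M+133+ cells with a median of 2.04 (limma, 37 at an unadjusted p under 0.05). In M-133- cells 6 rose, with a median of 2.35. The largest differences were those of Cdca3 (6.53), a target of the anaphase-promoting complex, Cep55 (4.99), of the midbody, Cdca8 (4.69), of the passenger complex, and Spc24 (4.33), of the kinetochore. Of 44 genes of DNA replication and S phase, 1 rose in M+133+ cells, Tk1 (thymidine kinase), by 4.88 ± 0.91 (SE, adjusted p = 0.0416), and 0 passed in M-133- cells (limma, 11 with an unadjusted p under 0.05), with medians of 1.11 and 0.97. Of 25 G1 cyclins, CDK inhibitors and brakes none passed in either sort (5 and 3 at an unadjusted p under 0.05), with medians of 0.25 and 0.19. Of 18 MuvB and E2F partners 0 passed in M+133+ cells (limma, 1 with an unadjusted p under 0.05), and 1 fell in M-133- cells, Nfya, a subunit of NF-Y, by 4.13 on the log2 scale (adjusted p = 0.0394), with medians of 0.34 and -0.28.

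Between the sorts after DDC, 12.3% of all genes passed, and the lists are read against that share. Of 69 other mitosis genes 4 passed, Pkmyt1 (4.34), Stil (2.76) and Wee1 (2.31) as higher in M+133+ cells and Spc24 (-2.49) as lower. Of 44 S phase genes 4 passed, among them Pole (4.18), Mcm2 (3.20) and Uhrf1 (2.01) as higher. These counts are under the share of all genes. Of 25 G1 genes and brakes 5 passed, Cdkn2b (6.63), Rbl1 (3.03) and Anapc2 (2.63) as higher and 2 as lower, among them Gas1 (-7.78). Some of these differences are set against low levels, which leaves their sizes uncertain. Gas1 read -8.90 to -7.64 in M+133+ DDC samples. In M-133- DDC samples Cdkn2b read -8.49 to -1.14 and Pole -8.31 to -1.73. Of 18 MuvB and E2F partners 1 passed, Nfyc (2.71). In untreated cells, where 8.46% of all genes passed, Wee1 (2.46) was higher and Mcm3 (-1.59) lower in M+133+ cells, with no other gene of these 4 lists past the threshold.

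Markers of other cell types moved with DDC in M-133- cells. All 10 stellate cell and fibroblast markers had differences above 0, 2 of them past the threshold (Des, 5.48, and Rgs5, 3.56), and their mean level was 3.50 to 4.70 in M-133- DDC samples, against 1.20 to 1.36 in M-133- untreated samples, with all 10 well above background in every sample. Of 10 endothelium markers 1 had a difference above 0 and none passed (limma, 5 at an unadjusted p under 0.05), with mean levels of 0.22 to 3.47 in M-133- DDC samples, against 4.26 to 4.27 in M-133- untreated samples. Of 12 bile duct markers 8 had differences above 0 in M-133- cells, with a median of 0.41 and a lowest of -1.01. Past the threshold were 2, Spp1 (8.78) and Sox9 (3.33). The mean level of the 12, which includes these 2 large rises, was -2.48 to -1.64 in M-133- DDC samples, against -3.87 to -3.20 in M-133- untreated samples. The mean of the 11 hepatocyte markers had overlapping ranges, 3.75 to 4.46 after DDC and 3.82 to 4.72 untreated, and none passed (2 at an unadjusted p under 0.05). The part of these cell types in the mitosis gene result was not tested.

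No marker of these 4 lists passed with DDC in M+133+ cells. Unadjusted p-values under 0.05 were found for 3 bile duct, 2 hepatocyte, 5 endothelium and 1 stellate cell markers, with medians of 0.97, 0.33, -1.78 and 0.56. The endothelium markers had mean levels of -4.39 to -2.38 in M+133+ DDC samples, against -2.44 to -0.34 in M+133+ untreated samples. Of the blood cell lists, macrophage (10), B cell (7), T and NK cell (8), neutrophil (5) and erythroid and platelet (8), 1 gene passed with DDC in either sort, Blk, a B cell kinase, which fell by 4.60 on the log2 scale in M-133- cells. The medians of the 5 lists were 1.02, 0.17, 0.33, -0.17 and 0.18 in M+133+ cells and 0.48, -0.25, -0.61, -0.89 and -0.90 in M-133- cells. Their part in the mitosis gene result was not tested.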

How the data were processed

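The arrays were Agilent 1-colour mouse arrays, hybridized with amplified, Cy3-labelled cDNA, per the labels' protocols. In the deposited array files the value of a spot is an intensity, its processed signal, from which Agilent Feature Extraction 10.5.1.1 had subtracted background, per the file headers, with no scaling between arrays. The authors' deposited table gives 2 kinds of score per comparison, signed linear fold changes and false discovery rates in percent, and served for comparison. The tool list of the submitters' processing notes holds limma, and how the authors normalized is not given in the sources used here.

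Levels are log2 of the processed signal minus the array's 75th percentile, computed here from the deposited intensity and averaged over repeat spots and repeat arrays. Probes entered the fit when any group had a share of 0.5 or more of its samples well above background, and the brightest of these stood for its gene. The comparisons came from limma 3.58.1 (R 4.3.3) fitted to all 14 samples with an intensity trend, two-sided, and p-values were adjusted by Benjamini-Hochberg over 24126 genes, with 0.05 as the threshold. SE is limma's moderated standard error, and the number of arrays limits the precision. A bound ("at least") uses the dimmest signal called well above background on each array. Values were given in every sample for members that passed in any comparison and for Cdk1, Ccnb1, Plk1, Cenpa, Foxm1 and Mybl2, and of other lists up to 4 genes per comparison were named. The members, the lists and the rule were chosen with earlier results of these data known. The fit was tested on simulated data. Alternatives were other scaling, background correction, probe filters, probe summaries, fits, slide and replicate blocks, repeat arrays and leaving out each sample.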

Additional observations from a re-analysis of the deposited data

Results flagged for a closer look

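Of 132 groups of 4 values examined (43 members and their mean level in 3 groups), 9 held a sample far from the others by Dixon's test (its gap to the nearest value against the range of the group). Chance flags about 1 in 20 such groups. In M+133+ DDC cells, Nuf2 was high in sample 4 (1.67, next -0.17) and Racgap1 was high in sample 3 (1.25, next 0.57). In M+133+ untreated cells, Cenpa was low in sample 1 (-5.46, next -1.17). In M-133- DDC cells, Aurkb (-5.95, next -1.54) and Ndc80 (-4.70, next 1.94) were low in sample 4, Birc5 (4.89, next 5.74) and Kif20a (1.70, next 2.02) were low in sample 2, Ncapg was low in sample 3 (-0.59, next 1.05), and Mki67 was high in sample 1 (3.32, next 2.68).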

How the results depend on the processing

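The count of mitosis genes past the DDC test moved with the processing. In M+133+ cells it was 7, against 3 with arrays scaled to their medians, 4 with no probe filter, 1 with no intensity trend, 4 with 2 groups in the fit, 0 with slide as a fixed block, 11 with slide as a random block and 1 with the second repeat arrays. In M-133- cells it was 8, against 13 with median scaling, 5 with normexp, 1 with 2 groups in the fit, 14 with slide as a random block and 6 with averaged probes, which lost 4 of the 8 and gained 2. With the replicate block 0 passed in M+133+ cells and 4 in M-133- cells. Samples of the same replicate number had correlations of deviations from group means of -0.15 to 0.07 over 18 pairs, 0 above 0.1. Many of these pairs join a DDC with an untreated sample, and a low correlation between sorts cannot exclude a shared mouse. Whether the replicate numbers pair samples is therefore not settled. The sample titles open with another number that recurs in both sorts and whose meaning is not given. Its 6 pairs correlated at -0.01 to 0.11, 1 above 0.1, and 4 of 8 DDC samples correlated best with their own number. As a replicate block it gave 6 in M+133+ cells and 8 in M-133- cells, and whether both sorts came from the same mice is not known. Leaving out 1 sample gave 0 to 9 in M+133+ cells, 2 to 11 in M-133- cells and 0 to 1 between untreated sorts, where the second repeat arrays also gave 1. Between sorts after DDC and for the interaction the count was 0 under every alternative run. The DDC difference of the mean level in M-133- cells was 2.04 with normexp, and the sort difference after DDC was -0.24 with median scaling. Of the repeats of single calls, 283 stayed past the threshold, 137 did not and 0 changed direction. The cause of these changes was not tested.

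Over all alternatives, all genes past the threshold numbered 6 to 157 with DDC in M+133+ cells (56 as reported), 34 to 352 with DDC in M-133- cells (229), 1119 to 3457 between sorts after DDC (2962), 827 to 2904 between untreated sorts (2041) and 11 to 125 for the interaction (60). Scaling moved their split. With DDC in M-133- cells 140 were higher and 89 lower, against 156 and 57 with quantile normalization, 220 and 38 with median scaling and 111 and 152 with normexp. Between sorts after DDC the split was 1470 and 1492, against 865 and 2409 with median scaling. Between untreated sorts it was 837 and 1204, against 528 and 1237 with normexp, and for the interaction 15 and 45, against 5 and 45 with median scaling. The median of all genes with DDC in M-133- cells ran from -0.81 to 0.28, and 40 to 42 members lay above it. The sign of Incenp turned there with median scaling, and those of Espl1 and Mybl2 with normexp. Probes not well above background in untreated cells limit the size of the differences of Cdc25c, Aurkb and Bub1.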
